A study of Mus musculus with 7 samples.

Results

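Microphthalmia-associated transcription factor (MITF) binds E-box sequences through its basic region, and in the osteoclast lineage it works beside PU.1, an Ets family factor that recognises purine-rich sequences with a GGAA core and sets the fate of myeloid cells. Both factors are needed for osteoclasts, the multinucleated cells that resorb bone, and both act in the precursors before the cytokine RANKL starts differentiation. The sites examined here were chosen by the MITF peak lists themselves. A persistent MITF site is a peak of the MITF osteoclast list, on chromosomes 1 to 19 or X, that overlaps by at least 1 bp both a peak of the MITF precursor list and a peak of the MITF 36 h list. There were 2003 persistent sites among the 4443 MITF osteoclast peaks, of which 4435 lay on those chromosomes. The other 2432 peaks there served as the comparison, and 840 of these overlapped a precursor peak only, 346 a 36 h peak only and 1246 neither.

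The study mapped DNA bound by each factor with ChIP-Seq, in which chromatin is sheared, pulled down with an antibody against the factor and sequenced. Bone marrow cells from C57BLACK6 mice, 4 to 6 weeks old, were grown for 3 days in 50 ng/ml CSF1, the growth factor of the macrophage lineage, and these myeloid precursors (MPs) received no RANKL. Further cells received 100 ng/ml RANKL for 36 h (called 36 h below) or for 72 h (osteoclasts, OCs), and all groups carried CSF1. PU.1 and MITF were each precipitated at the 3 times with 5 µg of antibody, and a non-specific IgG served as the control in MPs. Each of the 7 conditions has 1 library, so the values carry no replicate error and all intervals cover counting error only. The number of mice behind a library and the purity of the cultures are not given in the sources used here, and peak lists hold no expression from which the cell type could be checked.

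The MITF OC list holds peaks of 8 to 94 tags, which are the sequenced fragments counted in a peak, and the PU.1 lists hold 71941 to 77072 peaks of 6 to 252 tags. The Peak Score is this number after HOMER scaled each library to the same size. Peaks of the MITF 36 h list were 150 to 1387 bp wide and MITF peaks of the other times were all 150 bp wide, so the 36 h list gave more sequence to overlap. PU.1 peaks were wider at 36 h as well, with a median width of 190 bp against 150 bp in MP and in OC. Of the persistent sites, 0 overlapped any of the 349 IgG peaks, which come from MP only. Of the 2432 other MITF OC peaks 0 did as well, so this does not set the persistent sites apart.

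The sequences below show what 6 of the sites hold. They are the 3 sites with the highest MITF OC Peak Score that contain CACGTG, a form of the E-box. With them are the 3 highest that contain GAGGAA, the core bound by PU.1, but no CACGTG. Each is the plus strand of mm9, 5′ to 3′, and the capitals mark CACGTG and GAGGAA, the latter written TTCCTC where it lies on the minus strand.
Tbc1d14, chr5:36905878-36906028: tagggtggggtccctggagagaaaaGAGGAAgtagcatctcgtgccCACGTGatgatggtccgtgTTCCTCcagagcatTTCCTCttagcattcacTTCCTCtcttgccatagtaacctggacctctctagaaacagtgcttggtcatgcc
Ptafr, chr4:132148883-132149033: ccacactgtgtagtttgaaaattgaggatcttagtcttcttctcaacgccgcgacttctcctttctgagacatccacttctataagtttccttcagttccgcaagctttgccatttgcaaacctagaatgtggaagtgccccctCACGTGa
Atf6, chr1:172726004-172726154: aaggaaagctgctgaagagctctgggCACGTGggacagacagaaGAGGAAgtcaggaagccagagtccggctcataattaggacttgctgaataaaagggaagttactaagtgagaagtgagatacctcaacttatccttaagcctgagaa
Gm15572, chr6:52792689-52792839: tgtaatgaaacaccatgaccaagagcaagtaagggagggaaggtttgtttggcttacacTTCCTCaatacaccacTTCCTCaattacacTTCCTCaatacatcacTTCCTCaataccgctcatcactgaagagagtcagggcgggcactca
Nnmt, chr9:48366918-48367068: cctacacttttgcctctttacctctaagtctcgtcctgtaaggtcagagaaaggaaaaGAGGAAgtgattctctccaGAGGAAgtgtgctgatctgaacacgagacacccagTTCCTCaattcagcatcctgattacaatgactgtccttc
AC165951.1, chr17:31142223-31142373: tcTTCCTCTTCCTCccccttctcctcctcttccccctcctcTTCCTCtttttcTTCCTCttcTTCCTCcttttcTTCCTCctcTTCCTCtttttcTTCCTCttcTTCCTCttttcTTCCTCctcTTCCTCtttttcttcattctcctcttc

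The Tbc1d14 sequence lies in an intron, 752 bp from the nearest transcription start site (TSS) of this gene, a regulator of autophagy, and holds 1 CACGTG and 4 GAGGAA. The site of Ptafr, the receptor of platelet-activating factor, is intergenic, 28976 bp from its TSS, and holds CACGTG near the end of the peak and 0 GAGGAA. The third sequence lies in an intron, with Atf6 as the nearest protein-coding gene at 71823 bp. The GAGGAA sequences beside Gm15572 and Nnmt hold 4 and 3 copies. The AC165951.1 sequence, in an intron, is a run of TTCCTC and related pyrimidine letters with 11 copies.

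MITF occupancy at the persistent sites is a description, since the 3 MITF lists chose them. The median MITF Peak Score was 17.7 in MP, 30.2 at 36 h and 16.0 in OC. The 36 h score was at least 2-fold above the MP score at 814 of 2003 sites and at least 2-fold below it at 43. The 36 h scores count tags over wider peaks, with a median width of 171 bp and up to 960 bp at these sites against 150 bp at the other times, and the part of the width in this difference was not tested. OC and MP scores lay within 2-fold of each other at 94.6% of sites. The median log2 ratio of OC to MP was -0.08, against a counting SD of 0.53 for the median site. The sites made up 45.2% of MITF OC peaks on these chromosomes, 37.1% of MITF MP peaks (2003 of 5402) and 57.2% of MITF 36 h peaks (2002 of 3503). Their median MITF OC score of 16.0 stood above the 10.3 of the other MITF OC peaks, and the rule itself used this list.

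The overlap was rarely marginal, with only 2 sites that shared less than 50 bp with a peak of either other list. The smallest overlap was 17 bp, at an intergenic site (chr10:5745012-5745162) near Esr1, the estrogen receptor gene. Its MITF scores were 9.3 in MP, 255 at 36 h, over a peak of 960 bp, and 10.3 in OC. Just outside the rule, a peak near Snx8 (chr5:140855358-140855508) missed by a gap of 37 bp, with scores of 11.4 and 10.7 at the nearest MP and 36 h peaks and 9.1 in OC.

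Nearly all persistent sites also carried PU.1, at every time. A PU.1 peak was present at 1988 of 2003 sites in MP (99.3%, 95% Wilson interval 98.8 to 99.5), at 1990 at 36 h (99.4%, 98.9 to 99.6) and at 1988 in OC (99.3%, 98.8 to 99.5). At 1984 sites it was present in all 3 PU.1 lists, and at 10 sites in none. Among the other MITF OC peaks PU.1 was present at 88.6% in MP, 87.9% at 36 h and 88.7% in OC. The difference was 10.6 percentage points in MP (95% Newcombe interval 9.35 to 12), 11.4 at 36 h (10.1 to 12.8) and 10.6 in OC (9.31 to 12). Peaks of 1 library share that library and are not replicates, so no p-value was computed.

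The gap in PU.1 overlap was not even along the MITF OC scale. Among MITF OC peaks of 8 or 9 tags, 98.6% of persistent sites and 83.3% of the others had a PU.1 OC peak, a difference of 15.3 points (12.52 to 17.46). At 10 or 11 tags the difference was 2.94 points (0.814 to 4.97). At 12 to 14 tags it was 1.76 points and at 15 to 19 tags 1.67 points, and both intervals included 0 (-0.118 to 4.16 and -0.424 to 7.45). At 20 tags or more, where only 23 other peaks remain beside 504 persistent sites, it was 12.6 points (4.08 to 31.7).

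The PU.1 peaks at persistent sites were among the highest of their lists. The median PU.1 Peak Score was 189.3 in MP (quartiles 146.7 and 233.7), 162.6 at 36 h (127.1 and 204) and 171.8 in OC (136.6 and 208.5). The median over each whole list was 23.9, 23.7 and 23.5, and over the other MITF OC peaks with PU.1 it was 109.2, 97.6 and 108.7. The median persistent site thus stood at the 97.8th percentile of the PU.1 MP list, the 97.8th of the 36 h list and the 97.9th of the OC list. A PU.1 peak in the top 10% of its list was found at 93.9% of sites in MP, 92.7% at 36 h and 93.6% in OC. Among the other MITF OC peaks the same was true of 52.1%, 52.5% and 56.6%.

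**Figure D1:**
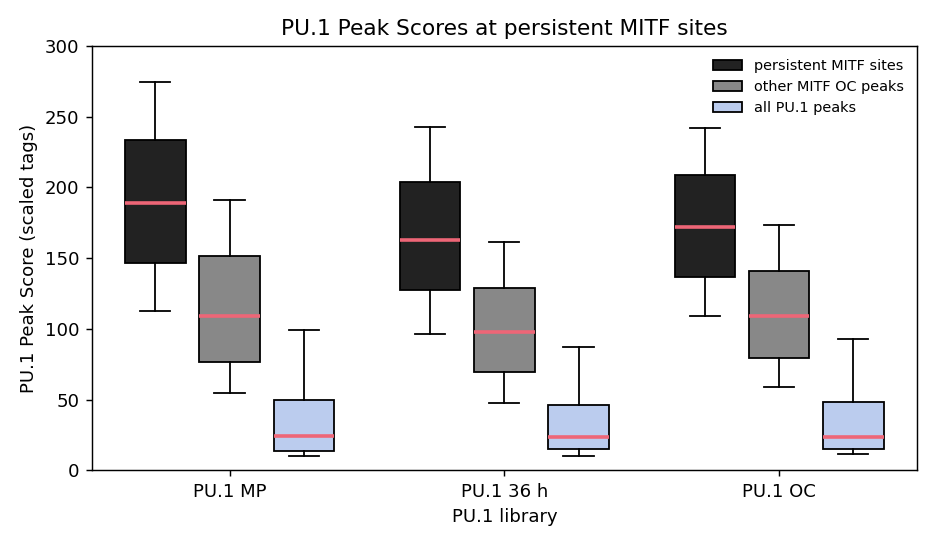
PU.1 Peak Score (scaled tags, vertical axis) in the 3 PU.1 libraries at persistent MITF sites, at other MITF OC peaks and over all PU.1 peaks; boxes span the quartiles, lines are medians and whiskers reach the 10th and 90th percentile. The box of persistent sites lies highest at each time, with medians of 189.3, 162.6 and 171.8.

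Read from the side of PU.1, the share of peaks that coincided with a persistent MITF site fell steeply down each list. Of the top 1% of PU.1 peaks, 72.6% overlapped a persistent site in MP (69.3 to 75.6), 78.9% at 36 h (75.7 to 81.7) and 76.9% in OC (73.8 to 79.7). Between 5% and 10% from the top the share was 8.81%, 8.42% and 7.94%. In the lower part of the PU.1 OC list, beyond 50% from the top, it was 1 of 38536 peaks. A MITF peak of any time, persistent or not, lay at 97.4% of the top 1% of PU.1 OC peaks and at 9.25% of all of them.

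**Figure D2:**
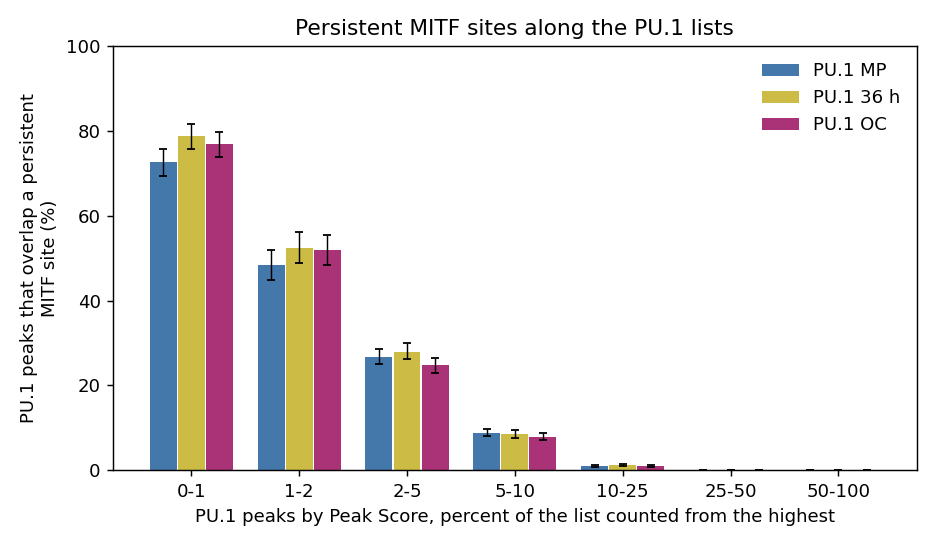
Share of PU.1 peaks that overlap a persistent MITF site (vertical axis, %) by position in the PU.1 MP, 36 h and OC lists, ranked from the highest Peak Score (horizontal axis, percent of the list); bars carry 95% Wilson intervals. The share falls from 72.6% to 78.9% in the top 1% to at most 1.16% beyond the top 10%.

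MITF and PU.1 peaks also had centers close to each other. The distance between the center of a persistent site and that of its PU.1 peak had a median of 10 bp in MP, 12 bp at 36 h and 11 bp in OC. In OC the centers were compared only where a PU.1 OC peak was present. They lay within 25 bp of each other at 85.4% of 1988 such persistent sites and at 75.7% of 2156 such other MITF OC peaks. The difference was 9.67 points (7.27 to 12). Across sites, log2 MITF tags and log2 PU.1 tags of the same time had a Pearson r of 0.63 in MP (n = 1988 sites), 0.50 at 36 h (n = 1990) and 0.49 in OC (n = 1988). These values describe sites that share a pair of libraries and a lower limit on tags.

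The highest persistent site lay in an intron, 931 bp from the TSS of Gm15572, the first of the GAGGAA sequences shown above. Its MITF scores were 136.1 in MP, 300.8 at 36 h and 107.3 in OC, and its PU.1 scores were 378.7, 354.8 and 336.3. The next site, intergenic and 38487 bp from the TSS of Nnmt, which encodes nicotinamide N-methyltransferase, had MITF scores of 97.6, 206.4 and 100.5. It also carried the highest PU.1 peak of all 3 lists, at 414.5 in MP, 372.5 at 36 h and 356.8 in OC. These PU.1 peaks hold 243, 252 and 243 tags. Among the 10 sites with the highest MITF OC score, PU.1 OC scores ran from 217.3, at the pyrimidine run of AC165951.1, to the 356.8 of Nnmt.

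Antxr2, Pltp and Cd302, genes of cell surface receptors and of a lipid carrier in plasma, lay near others of these 10. An intronic site near Antxr2 (chr5:98447268-98447418), which encodes a cell surface receptor of anthrax toxin, had MITF scores of 86.2 in MP, 221 at 36 h and 82.2 in OC. Its PU.1 scores were 300.2, 270.5 and 265.8. An intergenic site 5011 bp upstream of Pltp (chr2:164688147-164688297), which encodes phospholipid transfer protein, had MITF scores of 85.2, 290.1 and 81.1, and PU.1 scores of 363.3, 300.1 and 270.2. A site 4337 bp upstream of Cd302 (chr2:60126807-60126957), a C-type lectin receptor gene, had MITF scores of 90.4, 127.5 and 73.1 beside PU.1 scores of 394, 360.7 and 349.5. The remaining members of the 10 lay beside Tbc1d14, Sf3b2, Slc22a27 and Pisd-ps1, with MITF OC scores of 84.5 to 86.8.

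Few of the persistent sites passed a 2-fold difference in PU.1 between the times. Tags were compared at PU.1 peaks shared by a pair of libraries, relative to the median ratio of all shared peaks. The 36 h tags were counted over wider PU.1 peaks (median 190 bp against 150 bp), and the part of this width in the differences was not tested. From MP to 36 h, 5 of 1986 sites were at least 2-fold higher, where 4.01% of 56335 shared PU.1 peaks were, and 12 were at least 2-fold lower, where 3.41% were. From 36 h to OC, 0 of 1986 sites were at least 2-fold higher (1.97% of 58008 shared peaks) and 1 was lower (2.61%). From MP to OC, 3 of 1987 sites were higher (3.00% of 60099) and 6 were lower (2.38%). The backgrounds hold many peaks of few tags. Among shared peaks with at least 181 tags in MP and OC together, the lower quartile of the persistent sites, 1 of 3286 passed 2-fold, and 0 of the 1497 persistent sites with as many tags did. Below 181 tags 9 of 490 persistent sites and 3229 of 56813 shared peaks passed it. The shared peaks include the PU.1 peaks at the persistent sites, so they are not a separate background.

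An exact binomial test of the tags, conditional on their sum and adjusted by Benjamini-Hochberg over all shared PU.1 peaks, compares the 2 libraries and not the conditions. With a 2-fold limit it called 15 sites from MP to 36 h, 0.755% of those tested beside 0.932% of all shared peaks. It called 1 site from 36 h to OC, 0.0504% beside 0.0655%. From MP to OC it called 8 sites, 0.403% beside 0.130%, so that here the share of sites stood above that of all shared peaks, which have a median of 39 tags in both libraries together where the sites have 228. At an unadjusted p under 0.05 in the same exact test there were 301 of 1986 sites from MP to 36 h, 126 of 1986 from 36 h to OC and 244 of 1987 from MP to OC. No share over all shared peaks is given at this limit, so these counts are not read as a result about the sites. The log2 ratio from MP to OC had an SD of 0.25 over the sites, beside 0.20 for counting alone. Its median was -0.12 over all 1987 sites, of which 1412 lay below 0. The median of shared peaks with at least 181 tags, those at the sites included, was -0.14. Only from 36 h to OC did the sign of the sites' median depend on the scaling. Relative to all shared peaks the sites' medians were -0.07 from MP to 36 h, -0.04 from 36 h to OC and -0.12 from MP to OC. With libraries scaled by their implied size they were -0.19, 0.06 and -0.14, while the median of all shared peaks moved to -0.12, 0.11 and -0.02.

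The persistent site with the largest rise in PU.1 from MP to OC, among those with at least 30 PU.1 tags, was intergenic (chr12:78835141-78835291), 323823 bp from the TSS of Fut8, the nearest protein-coding gene. PU.1 tags there numbered 19 in MP, 74 at 36 h and 61 in OC, a log2 ratio of OC to MP of 1.49 (exact binomial test, adjusted p = 0.0382). MITF tags at this site were 9, 97 and 17. An intergenic site 49367 bp upstream of Tmed10 (chr12:86764959-86765109), which encodes a protein of vesicle traffic, had 43, 132 and 124 PU.1 tags, a log2 ratio of 1.34 (adjusted p = 4.43e-04 by the same exact test). At both sites the 36 h and OC values were high and the MP value was low. A site 3012 bp upstream of Sbno2 (chr10:79568380-79568530), a gene linked to osteoclast fusion, had 51, 149 and 119 PU.1 tags (log2 ratio 1.03, adjusted p = 0.0211, exact test). The remaining 2 of the 5 highest ratios, both in introns, lay nearest to the TSS of Adamts17 and 17783 bp upstream of that of Gm16487. They had log2 ratios of 0.84 and 0.83 and adjusted p of 0.520 and 0.272 in the exact test.

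The largest fall lay in an intron near Ccdc41 (chr10:94190900-94191050), a gene of centriole function. PU.1 tags there were 51 in MP, 14 at 36 h and 18 in OC, a log2 ratio of -1.70 (exact binomial test, adjusted p = 0.0164). MITF tags at this site were 26, 30 and 12. At an intronic site with Fat3 as the nearest gene, at 156635 bp (chr9:15918826-15918976), which encodes an atypical cadherin, the PU.1 tags were 73, 47 and 37, a log2 ratio of -1.17 (adjusted p = 0.0396, exact test). The sites near Gm13852, 4930412B13Rik and Fam179a had log2 ratios of -1.13, -1.09 and -1.07 and adjusted p of 0.0260, 0.0048 and 0.0241 in the exact test. At all 5 sites PU.1 tags at 36 h lay below those in MP. Across 1986 sites the log2 ratios of MITF and PU.1 tags from MP to OC had a Pearson r of 0.25, a description of sites whose tags come from the same 4 libraries.

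**Figure D3:**
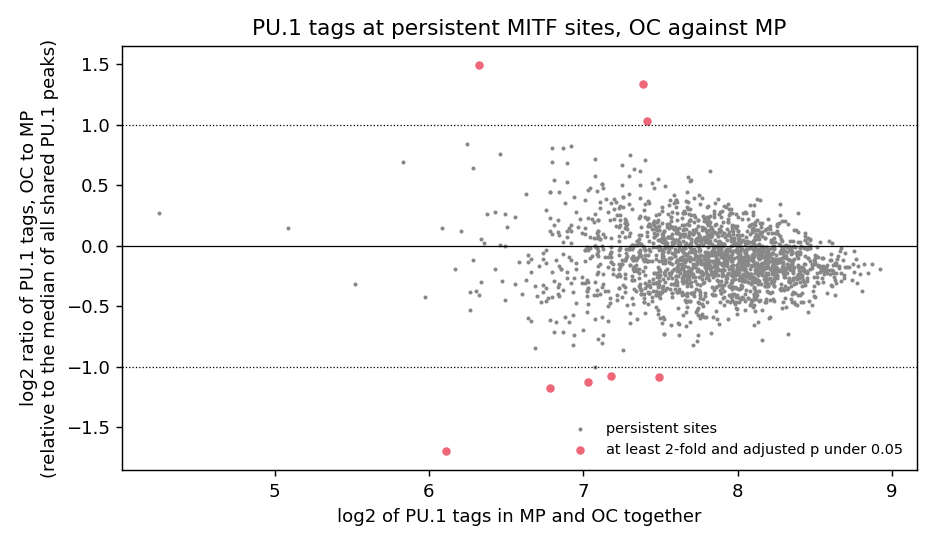
Log2 ratio of PU.1 tags, OC to MP (vertical axis, relative to the median of all shared PU.1 peaks), against the log2 of the tags in both libraries together (horizontal axis), 1 point per persistent MITF site; dotted lines mark 2-fold. The 8 larger points passed 2-fold with an adjusted p under 0.05, and 3 of them lie above 0.

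The 10 persistent sites without PU.1 in any list had MITF OC scores of 9.1 to 29.7. The highest, an intergenic site near AC109145.1 (chr1:197067749-197067899), had 23 MITF tags in MP, 124 at 36 h, in a peak of 436 bp, and 26 in OC. The next lay 34663 bp upstream of Zfp746 (chr6:48071180-48071330), with 20, 11 and 20 MITF tags. An intronic site near Tpm3 (chr3:89885563-89885713), which encodes tropomyosin, had 15, 83 and 19 tags, and had 6 PU.1 OC peaks within 12500 bp although none at the site. The others were 2 sites near Gm13847 and 1 each near Pisd-ps2, Cd180, Esr1, AA474408 and a 7SK gene. None of the 10 held CACGTG, and 3 held GAGGAA. A further 9 sites had PU.1 in 1 or 2 of the lists.

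Most persistent sites lay away from gene starts. The median distance from a site to the nearest TSS was 11020 bp (95% interval of the median 10162 to 11977). Of the 2003 sites, 193 lay within 1 kb of a TSS (9.64%, 8.42 to 11), 948 lay 10 to 100 kb away (47.3%, 45.1 to 49.5) and 106 lay over 100 kb away (5.29%). By their center, 49.7% were in introns, 45.1% were intergenic and 5.14% were in exons. The other MITF OC peaks were less often intergenic, at 42.1%, a difference of 2.99 points (0.0544 to 5.91), and the differences for introns and exons had intervals that included 0. Their share within 1 kb was 11.3%, a difference of -1.67 points (-3.47 to 0.148), and their share from 10 to 100 kb was 47.5%, a difference of -0.163 points (-3.11 to 2.79). Persistent sites were more often 3 to 5 kb from a TSS, by 2.02 points (0.351 to 3.73), and the share over 100 kb away differed by -1.94 points (-3.36 to -0.506). The median PU.1 OC score was 173.3 for the 193 sites within 1 kb and 171.8 for the 1810 farther away.

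**Figure D4:**
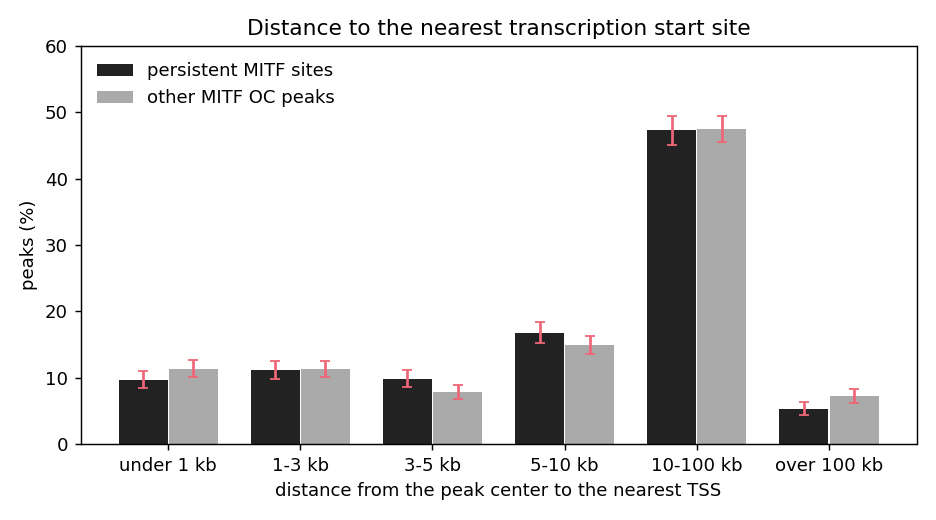
Distance from the peak center to the nearest TSS (horizontal axis, classes) for persistent MITF sites and for other MITF OC peaks (vertical axis, % of peaks), with 95% Wilson intervals. The class of 10 to 100 kb holds 47.3% of persistent sites and 47.5% of the others.

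Most sites had no other persistent site near them. Joined within 12500 bp, the distance HOMER uses to stitch superenhancers, 1791 sites stood alone and 212 (10.6%, 9.31 to 12) fell into 103 clusters, 6 of which held 3 sites and none more. The share in clusters was 9.58% for the other MITF OC peaks. A persistent site had a median of 3 PU.1 OC peaks within 12500 bp of its center, its own included, and this median was the same for all PU.1 OC peaks. The cluster of 3 with the highest MITF OC score, 28.5, spanned 6808 bp (chr9:34857648-34864456) in introns near Kirrel3, a cell adhesion gene. The second (chr1:133367338-133389278) lay in introns, with AC109299.1 as the nearest TSS and Srgap2, a regulator of the cytoskeleton, as the nearest protein-coding gene at 34735 to 56525 bp from its TSS. It had PU.1 MP scores of 250.8 to 286.6 and PU.1 OC scores of 186.5 to 217.3. The third was intergenic near Gm17351, and the fourth lay in introns near Pilra, an inhibitory receptor of myeloid cells, with 3 sites in 5263 bp. The fifth lay beside Glul, the gene of glutamine synthetase, with MITF OC scores of 9.1 to 16.

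By nearest TSS the 2003 sites belonged to 1722 genes, of which 1494 had 1 site and 228 had more. Fam49b, an inhibitor of Rac1-driven actin remodelling, had the most, with 7 sites over chr15:63834831-64013089, MITF OC scores of 13.7 to 36.5 and PU.1 OC scores of 149.8 to 233.5. Rreb1, a zinc finger transcription factor, had 5 sites with MITF OC scores of 16 to 37.7. Nfatc2, which encodes a calcium-responsive factor of the same family as the osteoclast regulator Nfatc1, had 4 sites, and Tgfbi, an extracellular matrix protein, had 4. Of the genes with 3 sites, the 6 with the highest MITF OC score were Antxr2, Sykb, Pik3ap1, Ppp1r1c, Bcas1 and Runx1. Sykb is the annotation's name for Syk, the kinase downstream of the receptors that carry ITAM motifs, and its sites had MITF OC scores of 11.4 to 62.8.

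Over all 22350 protein-coding genes, 10.4% had a persistent site within 35 kb of a TSS, and shares in the gene lists are read beside this value. No test was made on the lists, several genes of which the study named from these libraries, so that their counts are not independent evidence. Of 32 genes of macrophage surface and signalling, 19 had a site. The nearest site of Cx3cr1, the fractalkine receptor, lay in an intron 9342 bp from its TSS (chr9:119967983-119968133), with MITF scores of 42.6 in MP, 264.8 at 36 h and 58.2 in OC. That of Fcgr1, the high-affinity IgG receptor, lay 55 bp upstream of the TSS, with MITF scores of 19.7, 10.7 and 24. The gene of CD68, a lysosomal glycoprotein of macrophages, had a site 8 bp from its TSS (chr11:69479572-69479722), with MITF scores of 36.4, 63.3 and 22.8 and PU.1 scores of 233.7, 212.9 and 180.6. Sirpa, Ptprc and Tlr4 had MITF OC scores of 24, 19.4 and 18.3, and the site of Tlr4, the endotoxin receptor, lay 1 bp from its TSS.

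Osteoclast function genes had a site in 14 of 37 cases. Fcer1g, whose product is an ITAM adaptor that costimulates RANK, had a site 359 bp upstream of its TSS (chr1:173164780-173164930). MITF scores there were 41.6 in MP, 103.2 at 36 h and 35.4 in OC, and PU.1 scores were 245.6, 208.4 and 210. The nearest site of Ctsk, which encodes the collagen-degrading protease cathepsin K, was intergenic and 22096 bp from its TSS (chr3:95325229-95325379), with MITF scores of 35.3, 54.5 and 30.8. PU.1 scores at this site were 283.2, 205.5 and 217.3. Vav3, Trem2 and Mmp9, which serve cytoskeletal signalling, ITAM signalling and matrix breakdown, had MITF OC scores of 30.8, 20.6 and 18.3. Acp5, the gene of tartrate-resistant acid phosphatase, had a site 10954 bp from its TSS, with an MITF OC score of 14.8, and is named here after its value was seen.

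Of 26 transcription factors that promote osteoclasts, 8 had a site. Nfatc1, the master regulator of osteoclasts, had the highest, in an intron 16199 bp from a TSS (chr18:80888638-80888788), with MITF scores of 47.8 in MP, 84.7 at 36 h and 43.4 in OC. PU.1 scores at that site were 291.7, 261.6 and 246.7, a log2 ratio of OC to MP of -0.22 (exact binomial test, adjusted p = 0.977). The AP-1 gene Fosl2 had a site 23765 bp upstream (MITF OC score 22.8), and Mitf itself had 1 in an intron 4156 bp from a TSS, with an MITF OC score of 14.8 and PU.1 scores of 145, 146.3 and 157.1. Junb, Batf and Esrra had MITF OC scores of 11.4 to 13.7. Of 20 factors listed as inhibitors of osteoclasts, 6 had a site. The sites of Klf2, Runx1, Rbpj and Bcl6 had MITF OC scores of 27.4, 18.3, 16 and 13.7. Cebpa, at 29.7, was also on this list, and its role as an inhibitor was not checked here. The study itself names Runx1 and Bcl6 as inhibitors. Within 35 kb the shares of the 2 lists, promoting and inhibiting, were 30.8% and 30%. This likeness depended on the window, since by nearest TSS 7 of the 26 and 9 of the 20 had a site.

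Of 39 genes of lysosomes or known as MITF and TFE targets, 9 had a site. The nearest site of Ctsa, which encodes cathepsin A, is the one described above upstream of Pltp. Lamp1, a membrane protein of lysosomes, had a site 3527 bp upstream (chr8:13155533-13155683), with MITF scores of 44.7 in MP, 96.4 at 36 h and 30.8 in OC. Ctsb, Psap and Atp6v1c1 had MITF OC scores of 24, 24 and 22.8, and the Psap site had a PU.1 peak in MP and OC but not at 36 h. Of 15 melanocyte genes 2 had a site (13.3%, near the 10.4% of all genes), Mlana and Trpm1, with MITF OC scores of 18.3 and 11.4. Of 15 B lymphoid genes 5 had a site (33.3%), namely Blnk, Blk, Il7r, Rag1 and Rag2, and 1 site at chr2:101491135-101491285 served Rag1, Rag2 and Traf6.

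The E-box form CACGTG was rare at persistent sites. E-boxes with other letters, apart from TCANGTG, were not counted. CACGTG, searched on both strands within the 150 bp peak, was present at 36 of 2003 sites (1.8%, 1.30 to 2.48), at 1.93% of other MITF OC peaks and at 2.51% of all PU.1 OC peaks of this width. The M-box core TCANGTG, which CACGTGA also holds, was present at 6.09% of sites, 7.07% of other MITF OC peaks and 7.65% of PU.1 OC peaks. The differences between persistent sites and other MITF OC peaks were -0.135 points for CACGTG (-0.936 to 0.696) and -0.982 points for TCANGTG (-2.44 to 0.499). The 36 sites with CACGTG, such as those of Tbc1d14 and Ptafr shown above, had median PU.1 scores of 180 in MP, 167.8 at 36 h and 171.1 in OC. Their median MITF OC score was 13.7, and it was 16.0 at the 1967 sites without CACGTG.

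The PU.1 core was common, and its nearest copy often lay close to the center. GAGGAA was present at 1496 persistent sites (74.7%, 72.7 to 76.5), at 61.0% of other MITF OC peaks and at 55.8% of all PU.1 OC peaks. The copy nearest to the center lay within 25 bp of it at 71.5% of the sites that hold GAGGAA, with a median of 14.5 bp. CACGTG lay within 25 bp at 15 of 36 sites. Many sites hold several copies of GAGGAA, which makes a near one more likely. The positions were not compared with those in other peaks or with random placement. The long PU.1 core GAGGAAGT, which contains GAGGAA, was present at 37.4%, 25.6% and 22.3% of the 3 kinds of peak, and this direction turned in part of the PU.1 score range. TGANTCA, the AP-1 site, was present at 7.44% of persistent sites, 7.24% of other MITF OC peaks and 8.57% of PU.1 OC peaks.

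PU.1 peaks as high as those at the sites, but without a MITF peak of any time, were compared within deciles of PU.1 OC score. In the top decile, with scores of 92.5 or more, there were 1875 persistent sites and 2756 such PU.1 peaks. GAGGAA was present at 75% of the former and 63.2% of the latter, a difference of 11.8 points (9.11 to 14.4). CACGTG was present at 1.76% and 2.65%, a difference of -0.889 points (-1.73 to -0.0056). TCANGTG differed by -3.14 points (-4.66 to -1.57) and TGANTCA by -3.51 points (-5.16 to -1.81). The persistent sites had the higher PU.1 scores even within this decile, with a median of 176.2 against 110.1. In the narrower range of 125 to 175, with 662 sites and 675 PU.1 peaks, GAGGAA was present at 69.6% and 64.7%, and the difference of 4.90 points had an interval that included 0 (-0.138 to 9.89). In this range CACGTG differed by -2.05 points (-3.82 to -0.399). In every other range of PU.1 score the interval for CACGTG included 0. The CACGTG difference was -0.465 points (-1.74 to 1.89) from 75 to 125. It was above 0 below 75, from 175 to 225 and from 225 to 400. From 175 to 225, where only 66 PU.1 peaks stood beside 625 sites, the difference for GAGGAA was 1.20 points (-8.19 to 13.2). At lower scores it was larger, 11.6 points (6.20 to 16.5) from 75 to 125, with 313 sites, and 24.9 points (12.65 to 33.5) below 75, with 57 sites. From 225 to 400, where only 7 PU.1 peaks stood beside 331 sites, the GAGGAA difference was 26.5 points (-0.842 to 58.8). The long PU.1 core differed by 5.46 points (2.65 to 8.27) over the top decile, but by -3.64 points (-8.75 to 1.49) from 125 to 175 and by -12.9 points (-25.01 to -0.376) from 175 to 225, where persistent sites held it less often.

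Several copies of GAGGAA, as in the Gm15572 and AC165951.1 sequences above, were present more often at persistent sites. At least 3 copies were present at 191 persistent sites (9.54%), at 6.41% of other MITF OC peaks and at 3.33% of all PU.1 OC peaks. In the top decile of PU.1 OC score the shares were 8.32% and 2.10% with and without MITF, a difference of 6.22 points (4.90 to 7.63). In the ninth decile they were 25 of 100 sites and 2.47% of PU.1 peaks, a difference of 22.5 points (15.1 to 31.8). The 191 sites had a median PU.1 OC score of 165.9, below the 176.2 of the 882 sites with 1 copy, and a median MITF OC score of 19.4, above the 16.0 of those sites.

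**Figure D5:**
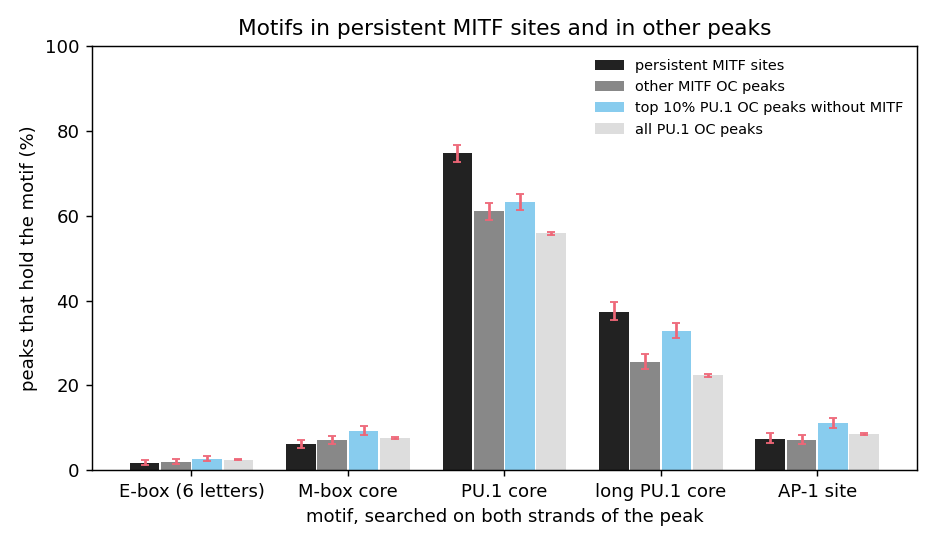
Share of peaks (vertical axis, %) that hold each motif (horizontal axis, by the names given in the text) among persistent MITF sites, other MITF OC peaks, PU.1 OC peaks of the top 10% without a MITF peak and all PU.1 OC peaks, with 95% Wilson intervals. The PU.1 core reaches 74.7% at persistent sites, and the E-box, searched as CACGTG only, stays below 3% in all 4 kinds of peak.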

How the data were processed

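Per the labels, ChIP-Seq reads were processed by the authors with CASAVA 1.8 and Bowtie2 against mm9, and peaks were called with HOMER. Versions of the latter 2 and the settings are not given in the sources used here. The deposited Peak Score is a signal, the tags of a peak scaled to a common library size. Scores of each list were whole multiples of 1 value within 0.0511, and division by it gave tags per peak. The value of 1 tag ran from 0.973 to 3.20 in score.

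Overlap needed 1 bp. The highest overlapping PU.1 peak gave the PU.1 score. Distances, exons and introns came from GENCODE vM1 on NCBIM37, the same assembly as mm9, at the peak center, and sequences from that genome. Shares have 95% Wilson and differences 95% Newcombe intervals. For shared PU.1 peaks the tags of 2 libraries were set against their sum in an exact binomial test. A check of this test on simulated data held counting error only and planted changes larger than 2-fold. It does not cover spread between replicate libraries or changes near 2-fold. Named sites were the 10 highest by MITF OC score, the 5 largest PU.1 ratios each way with at least 30 tags, the 5 largest clusters, those at the edge of the rule and those without PU.1. Named genes were the 10 with most sites and, per list, the 6 whose nearest site scored highest. Some genes that this rule names are not reported here. The genome copy has no repeat masking, so a planned limit on repeats in the printed sequences was not applied. Pira1 was not matched in the annotation. The sites, the gene lists and these choices were made with earlier results of these data known. Python 3.11.15, numpy 2.4.6, scipy 1.17.1, pandas 2.3.3, pysam 0.24.0, samtools 1.23.1 and matplotlib 3.10.9 were used.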

Additional observations from a re-analysis of the deposited data

How the results depend on the processing

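Of 97 alternative values for 22 results, 74 kept within the interval of the value given, or within 1.5 times a count. Raising the lowest MITF score allowed in each list 2-fold left 615 sites. PU.1 was then present at 99.84% of them at each of the 3 times, median PU.1 scores were 240.5 in MP, 209.9 at 36 h and 212.9 in OC, 3.902% were in clusters and 79.19% held GAGGAA. A reciprocal overlap of 50% raised the share with PU.1 to 99.64% in MP and 99.59% in OC. With protein-coding genes only, 49.83% lay 10 to 100 kb from a TSS. Joining within 5 kb or 20 kb put 5.991% or 15.03% in clusters, and a window of 200 bp held GAGGAA at 77.03% of sites. Scaled by library size, 2 sites passed 2-fold in PU.1 from 36 h to OC. Within 10 kb in place of 35 kb the lists held a site for 2 osteoclast-promoting and 3 osteoclast-inhibiting factors, 7 osteoclast function, 8 macrophage, 0 melanocyte and 2 B lymphoid genes, beside 4.12% of all protein-coding genes. By nearest TSS 2 B lymphoid genes remained with a site. The bands of PU.1 score and the top decile were chosen after seeing the data. No paired analysis was possible because each group has 1 library. Peaks below the lowest tag count of a list, 6 to 10 tags, cannot be seen.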

Other observations

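Persistent MITF sites were found on all 20 chromosomes examined, at 0.430 to 1.15 sites per Mb on the autosomes and 0.096 per Mb on X, where 16 sites lay. The X chromosome also held few high PU.1 peaks, 64 in the top 10% of the PU.1 OC list, of which 13 overlapped a persistent site (20.3%). On the autosomes this share ran from 17.0% to 28.2%. Chromosomes 3, 17 and 18 had the lowest shares, at 17.1%, 17.4% and 17.0%, and chromosomes 15 and 16 the highest, at 28.2% each.

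Across persistent sites PU.1 tags of different times were closely related, with a Pearson r of log2 tags of 0.84 between MP and 36 h, 0.91 between 36 h and OC and 0.88 between MP and OC. MITF tags had values of 0.61, 0.65 and 0.69 for the same pairs, over 2003 sites that the MITF lists chose. MITF peaks held far fewer tags, with medians of 17 in MP, 31 at 36 h and 14 in OC. For PU.1 these medians were 111, 110 and 117. The part of counting error in the lower MITF values was not tested.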
